A study of Mus musculus with 2 samples.

Results

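A group of neuronal-type genes, 9 of the 32285 genes counted, was examined across resting and wounded mouse skin: St6galnac5, Pdzrn4, Kcnma1, Grik1, Chat, Adcy1, Camk4, Tmtc1 and Me3. They had been picked from these data for a large drop in level after wounding, with no genotype named, so the wound contrasts of both genotypes below describe that choice and support nothing. The C57B6/J mice, of both sexes, all carried Sox9-CreER and R26-LSL-YFP, with which Cre under Sox9 control leaves a lasting YFP label in hair follicle cells and their progeny. The mice were either Phgdh +/+ or Phgdh fl/fl, where Cre can remove Phgdh, the first enzyme of serine synthesis from glucose. Skin was taken unwounded or at 3 or 5 days after wounding, which gives 6 conditions, each marked with its own hashtag antibody and run together in 1 droplet capture. How many mice stand behind a hashtag is not given in the sources used here, so each condition is 1 pool of cells. With 1 pool per condition no test between conditions was possible, and "higher" and "lower" below describe these pools alone.

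The sort differed between the conditions. Every pool was sorted for live YFP+ cells with high integrin-α6 that lacked CD140a, CD117, CD31 and CD45. Unwounded cells also had to lack SCA1 and to carry CD34 and CD200, the surface profile of bulge stem cells, whereas wounded cells had no such gate. Wounding and gate therefore cannot be told apart where wounded and unwounded cells are compared, in whole pools or in parts of them. After filtering, the unwounded pools held 406 (+/+) and 662 (fl/fl) cells with medians of 7174.5 and 7243 UMIs (unique molecules) per cell, and the wounded pools 523 to 1434 cells with pool medians of 36277 to 45701.5. Pool totals ran from 3241223 to 70925244 UMIs. Phgdh itself stood at 54.3, 117 and 138 CPM (UMIs of the gene per pool, scaled to a fixed total of UMIs) in the +/+ pools (unwounded, 3 and 5 days) and at 25.2, 15.3 and 20.2 in the fl/fl pools. Whether the 3′ tags lie in the deleted part is not given in the sources used here.

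The bulge is the resting stem cell niche of the hair follicle, where CD34+ cells stay quiescent for long periods and leave for the epidermis when skin is wounded. Of the 9 gene products, 5 belong to systems well studied in neurons: calcium-activated potassium current (Kcnma1), glutamate reception (Grik1), acetylcholine synthesis (Chat), and calcium signalling to cyclic AMP and CREB (Adcy1, Camk4). The others, not particular to neurons as a class, modify glycans and proteins or feed the mitochondrial NADPH pool (St6galnac5, Pdzrn4, Tmtc1, Me3).

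The label "neuronal" fits the known roles of part of the genes and not the cells. Of 9 genes that define neurons, 7 had no UMI in the unwounded +/+ pool and 6 none in the unwounded fl/fl pool, and the list summed to 1.85 and 0.968 CPM. Those with at least 3 UMIs in an unwounded pool were Syt1, with 3 in each, and Stmn2, with 3 in +/+ and 1 in fl/fl. Snap25, Rbfox3, Elavl3, Elavl4, Nefl and Nefm were at 0 in both. In the wounded pools the list summed to 2.63 to 5.21 CPM, mostly Stmn2. Of the wider neuronal genes, the tubulin Tubb3 stood at 8.33 and 1.355 CPM unwounded and at 40.3 to 65.5 wounded, and Map2, a microtubule protein, at 11.7 and 10.1 against 25.3 to 37.85, the reverse of the 9 genes. Others of that list did not rise. Stx1a stood at 4.01 and 6.58 CPM against 3.12 to 3.87, with log2 folds below 0 by more than counting error in fl/fl alone (-0.77 and -0.79). Syp, at 1.23 and 0.1935 CPM unwounded, was lower in +/+ (-3.07 and -2.61), and its fl/fl intervals held 0. The 6 Schwann cell markers summed to 21.6 and 15.5 CPM unwounded against 29.1 to 38.0 wounded, and the 6 Merkel cell markers to 2.16 and 4.26 against 6.62 to 11.3, with Atoh1 at 0 in all 6 pools. All 10 bulge markers were present in both unwounded pools, and 96.3% (+/+) and 96.4% (fl/fl) of unwounded cells fell in clusters whose raised markers were those of bulge stem cells, called bulge-like below.

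On mm10, with gene positions from RefSeq (GRCm38.p6), St6galnac5 lies on chromosome 3 (152819885 to 152982210), Pdzrn4 on 15 (92396810 to 92771827), Kcnma1 on 14 (23292288 to 24005110) and Grik1 on 16 (87895901 to 88290863). Chat lies on chromosome 14 (32408203 to 32465909), Adcy1 on 11 (7063433 to 7178506), Camk4 on 18 (32934941 to 33195767), Tmtc1 on 6 (148232430 to 148444770) and Me3 on 7 (89632284 to 89854359). None of the genes overlap each other.

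Promoter windows were read for the starts of these genes. RefSeq windows (GRCm38.p6, 250 bases before to 50 after a start) were found for 6 of the 9 genes, 7 windows in all. St6galnac5, Grik1 and Camk4 had none in the table. In all, 7 short motifs were searched on both strands as exact letters, none overlapping another match. The LIM homeodomain core, TAATTA, was the only one found, 140 bases before the second Pdzrn4 start, and 5.29% of all 32851 windows hold it. The others were the CRE, TGACGTCA, in 1.79% of all windows, and the AP-1 site, TGAGTCA, in 5.2%. A SOX core, ACAATG, is held by 12.6%, and the motif of TCF and LEF factors, ATCAAAG, by 3.73%. A TATA box read as TATAAA is held by 13.6%, and the core bound by GATA factors, AGATAA, by 11.2%. An absent motif says only that these letters are not in the window. The windows below, on their genes' strands, are the 2 Pdzrn4 starts, with the match in capitals, and Kcnma1 and Chat as the richest in G and C and an intermediate one. They lie at chr15:92396560-92396859 (+), chr15:92596859-92597158 (+), chr14:24004156-24004455 (-) and chr14:32465860-32466159 (-).
Pdzrn4 first start: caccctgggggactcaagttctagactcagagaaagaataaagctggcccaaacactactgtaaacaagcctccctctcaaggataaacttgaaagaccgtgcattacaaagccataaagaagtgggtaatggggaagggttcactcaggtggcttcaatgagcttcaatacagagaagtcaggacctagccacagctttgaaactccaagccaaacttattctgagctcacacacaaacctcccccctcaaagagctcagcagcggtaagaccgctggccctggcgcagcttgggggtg
Pdzrn4 second start: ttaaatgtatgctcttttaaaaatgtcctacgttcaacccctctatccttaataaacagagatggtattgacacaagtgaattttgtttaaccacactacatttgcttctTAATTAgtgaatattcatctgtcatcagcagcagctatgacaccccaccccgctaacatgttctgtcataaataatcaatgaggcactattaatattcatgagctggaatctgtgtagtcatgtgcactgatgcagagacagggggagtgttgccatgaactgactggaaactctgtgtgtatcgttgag
Kcnma1: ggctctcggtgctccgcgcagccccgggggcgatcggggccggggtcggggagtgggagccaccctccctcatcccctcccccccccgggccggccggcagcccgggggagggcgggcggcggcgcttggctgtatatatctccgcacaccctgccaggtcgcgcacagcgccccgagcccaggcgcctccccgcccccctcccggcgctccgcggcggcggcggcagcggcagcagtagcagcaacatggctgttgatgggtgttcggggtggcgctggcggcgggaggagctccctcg
Chat: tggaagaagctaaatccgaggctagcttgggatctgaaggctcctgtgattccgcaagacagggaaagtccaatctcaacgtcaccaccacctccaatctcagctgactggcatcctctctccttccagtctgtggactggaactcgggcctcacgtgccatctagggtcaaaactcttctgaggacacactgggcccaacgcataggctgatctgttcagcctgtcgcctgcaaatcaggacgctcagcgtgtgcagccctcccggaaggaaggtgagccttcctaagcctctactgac
Their G and C content was 50.3%, 39.3%, 78.0% and 55.7%, beside a median of 52.7% over all windows. Of the motifs searched, none was shared between the windows. With 7 windows and motifs held by 1.79% to 13.6% of all windows, little sharing could be seen in any case, so nothing is concluded from it.

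Every gene was lower in the wounded than in the unwounded pools by far more than counting error, in both genotypes. All intervals below are 95% exact intervals of counting error alone and leave out the variation between animals. In the +/+ pools all 9 were at least 16-fold lower at 3 and at 5 days, where 1.92% and 2.3% of all genes averaging 50 CPM or more were. In the fl/fl pools all 9 were at least 16-fold lower at both times, against 2.19% and 3.77% of such genes. The choice of the genes fixes these counts, and each gene that reached the minimum did so through its unwounded level alone. Me3 was just under that minimum in the fl/fl contrasts, with means of 48.7 and 47.8 CPM, so 8 of the 9 count among the genes behind those shares. The median log2 fold over the 9 was -5.59 at 3 days and -7.58 at 5 days in fl/fl, where all genes had medians of 0.03 and 0.04. The corresponding +/+ medians were -6.16 and -6.35. The contrasts at 3 and 5 days share their unwounded pool. Wounded cells held more UMIs each, and on the scale of mean UMIs per cell the median log2 folds were -3.75 and -4.015 in +/+ and -3.14 and -4.92 in fl/fl. At a 2-fold mark, 20.7% and 20.9% of genes in +/+ and 20.6% and 20.1% in fl/fl were lower in the whole pools.

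**Figure D1:**
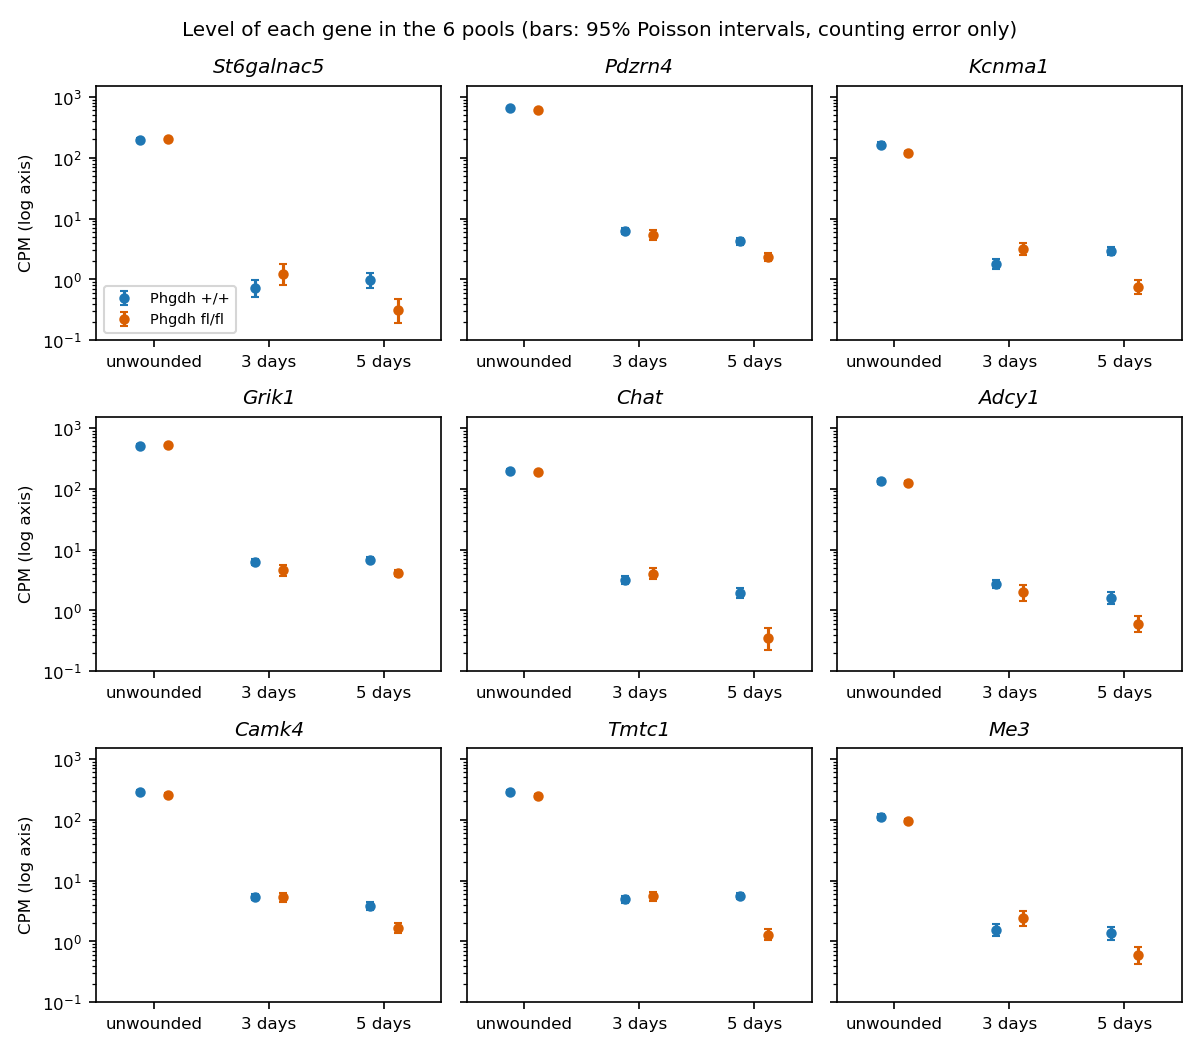
Level of each of the 9 genes (CPM, log axis) in the 6 pools, with 95% Poisson intervals of counting error; blue is Phgdh +/+ and orange Phgdh fl/fl. Every unwounded value lies between 95.02 and 659 CPM and every wounded value at or below 6.83 CPM.

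Of the 9, St6galnac5 had the largest estimated fold in each of the 4 wound contrasts, with an interval that overlapped another gene's in each except +/+ at 3 days. St6galnac5, a sialyltransferase that builds brain gangliosides, stood at 195 CPM in unwounded +/+ and 199 in unwounded fl/fl cells, at 0.717 and 1.21 at 3 days, and at 0.973 and 0.310 at 5 days. The unwounded pools overlap in their intervals and lie far above the 4 wounded ones. Its log2 folds against unwounded were -8.08 (-8.59 to -7.62) and -7.65 in +/+ and -7.36 (-7.96 to -6.81) and -9.32 in fl/fl. Of the 22 UMIs left in the fl/fl pool at 5 days, 1 cell held 68.2%.

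Pdzrn4, a PDZ and RING domain protein of the ubiquitin ligase type, measured 659 CPM in unwounded +/+ cells and 608.5 in fl/fl, then 6.22 and 5.44 at 3 days and 4.24 and 2.38 at 5 days. The fl/fl value was the lower of each pair, and at 3 days the intervals overlapped. Its fold was 112-fold lower at 3 days and 255-fold lower at 5 days in fl/fl. Tmtc1, an O-mannosyltransferase of cadherins in the endoplasmic reticulum, measured 288 and 248.5 CPM unwounded, 4.89 and 5.48 at 3 days, and 5.63 and 1.30 at 5 days. At 5 days its fl/fl level stood apart from the other 3 wounded pools, which lay within 4.89 to 5.63 CPM.

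Kcnma1, the pore subunit of the BK calcium-activated potassium channel, stood at 163 CPM (150 to 178) in unwounded +/+ and 119 (110 to 129) in unwounded fl/fl cells, the widest gap between genotypes among the 9 before wounding. It measured 1.80 and 3.19 CPM at 3 days and 2.94 and 0.761 at 5 days. The order of the genotypes thus turned between 3 and 5 days. In the fl/fl pool at 3 days 5 cells held 53.5% of its 71 UMIs, and at 5 days 1 cell held 40.7% of its 54.

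Grik1, a kainate-type glutamate receptor subunit, measured 511 and 515 CPM unwounded, 6.18 and 4.54 at 3 days, and 6.83 and 4.20 at 5 days. It differed from the other 8 in free RNA. In 65043 barcodes of 100 to 400 UMIs, too few for a cell, Grik1 stood at 428 CPM, 83.5% of its level in unwounded cells (both pools summed), where the median gene of at least 50 CPM stood at 71.2%. The other 8 stood at 3.604 to 17.96 CPM there, 2.25% to 4.76% of their unwounded levels. From the free RNA estimated in the wounded pools, 2.22 to 2.72 CPM of Grik1 would be free RNA. A Grik1 UMI was found in 17.4% to 18.3% of cells in all 4 wounded pools, and in 16.8% to 17.8% of their cells outside the bulge-like clusters. That estimate is below the wounded levels of whole pools and below the 3.96 to 5.09 CPM outside the bulge-like clusters, and the source of the remaining Grik1 UMIs there was not tested.

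Chat, the enzyme that makes acetylcholine, measured 198 and 185 CPM unwounded, 3.16 and 4.05 at 3 days, and 1.96 and 0.353 at 5 days. The fl/fl pool at 5 days was the lowest, with 25 UMIs in 1434 cells, and its interval (0.228 to 0.520) did not meet that of +/+ (1.61 to 2.37). Its fold in fl/fl was 45.8-fold lower at 3 days and 526-fold lower at 5 days.

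Of the calcium signalling genes, Adcy1, an adenylyl cyclase switched on by calcium and calmodulin, measured 133 and 125 CPM unwounded, 2.72 and 1.98 at 3 days, and 1.62 and 0.606 at 5 days. Camk4, a nuclear kinase that acts on CREB, measured 288.5 and 255 CPM unwounded, 5.39 and 5.30 at 3 days, and 3.84 and 1.65 at 5 days. Both were lower at 5 than at 3 days in both genotypes, with intervals of the fold below 0. Me3, a mitochondrial malic enzyme that yields NADPH, measured 111 and 95.02 CPM unwounded, 1.55 and 2.43 at 3 days, and 1.36 and 0.592 at 5 days. Its +/+ values at 3 and 5 days overlapped, and its fl/fl values did not.

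The 9 are not simply the lowest genes, since others lay among them. The ranks leave out mitochondrial, ribosomal protein, Gm-numbered and Rik genes, Xist, Tsix and listed Y-linked genes. They also leave out genes whose interval was not below 0. Before that, 3183 genes averaged at least 50 CPM at 3 days in +/+ and 3137 at 5 days. In +/+ cells at 3 days Myoc was 4th (log2 fold -6.48), Ltbp2 5th (-6.43) and Ccn2 8th (-6.13) of the ranked genes. Tmtc1 was the 10th (-5.88), Wfdc3 the 11th (-5.87), Camk4 the 12th (-5.74) and Adcy1 the 13th (-5.61). At 5 days Myoc was the lowest of the ranked genes (-8.26), Ltbp2 4th and Ccn2 9th. Grik1 was 10th (-6.225), Grem1 (-6.21) and Cd34 (-6.18) came next, and Kcnma1 and Tmtc1 were 15th and 17th. In the fl/fl pools Cck was the lowest at both times (-8.92 and -9.59), and 8 of the 9 held ranks between 3 and 19 at 3 days and between 2 and 20 at 5 days.

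Single cells of the unwounded pools carried several of the genes. With each cell thinned to 4000 UMIs, a cell of either unwounded pool had a median of 4 of the 9 genes, and at least 1 was found in 97.1% (94.9 to 98.5) of +/+ and 97.4% (95.8 to 98.5) of fl/fl cells. At least 5 were found in 43.4% and 40.5%. In the wounded pools the median was 0, and at least 1 gene was found in 11.3% (+/+) and 14.0% (fl/fl) of cells at 3 days and in 10.1% and 4.72% at 5 days. Thinning left out 26 and 50 shallower unwounded cells and 15 to 31 cells in each wounded pool. Without thinning, the median share over the 9 genes of cells with a UMI was 56.2% and 55.7% unwounded and 2.37% to 7.03% wounded.

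**Figure D2:**
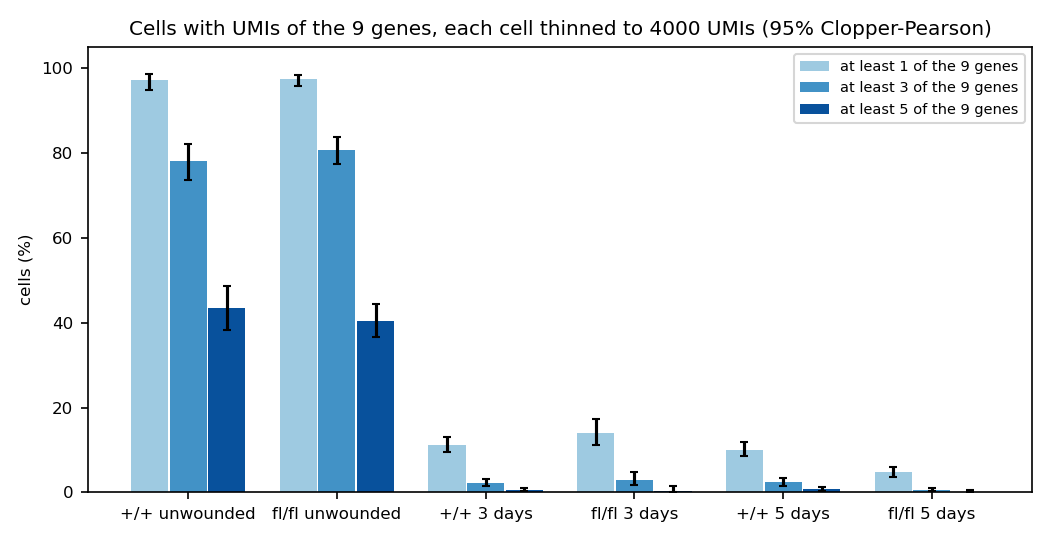
Share of cells (%) with at least 1, 3 or 5 of the 9 genes detected in each of the 6 pools after thinning every cell to 4000 UMIs; bars start at 0 and error bars are 95% Clopper-Pearson intervals. At least 3 genes were found in 78.2% and 80.7% of unwounded cells and in 0.564% to 2.96% of wounded cells.

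The wounded cells that carried several of the genes were mostly bulge-like. Of 4 wounded pools, 214 cells had UMIs of at least 3 of the 9 genes without thinning. Of these, 75.2% lay in bulge-like clusters, against 3.38% of the other 4377 wounded cells, and they held 52.3% of the wounded pools' UMIs of the 9 genes. They also carried the bulge markers Cd34 (158 CPM against 7.42) and Krt15 (5872 against 333), and less Krt6a, a wound keratin (4019 against 7075). Mki67, a proliferation gene, stood at 132 against 140 CPM. These levels sum the UMIs of all 214 cells, in bulge-like clusters or not. Wounded bulge-like cells held Krt6a at 452.5 to 655.6 CPM per pool. The Krt6a and Mki67 levels above thus describe a mixture, and Mki67 of bulge-like cells alone was not tested. After thinning, 27 and 15 cells at 3 days (+/+ and fl/fl) and 31 and 8 at 5 days had at least 3 genes. Of these, 26, 15, 30 and 8 were bulge-like.

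Bulge-like cells made up 10.4% and 9.94% of the 3-day pools and 6.65% (+/+) and 2.37% (fl/fl) of the 5-day pools. Clusters were built without the 9 genes. Unwounded bulge-like cells lay mainly in clusters C2 and C12 and wounded ones mainly in C13, so the same name covers different clusters. C19 held almost only unwounded cells, and C17 held both, 66 unwounded and 58 wounded. Among their top 10 genes C12 and C13 had 1 listed bulge marker, Krt24, and C2, C17 and C19 none. Wounded cells of C13 had median UMI counts of 11510 to 16120 and those of C17 of 10350 to 12940, all below the pools' 36277 to 45701.5. The 3-day pools had 133 and 52 bulge-like cells and the 5-day pools 90 and 34.

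Unwounded bulge-like cells had passed the gate for CD34, CD200 and SCA1, and wounded ones had not. Wounding and gate cannot be told apart here either. Within bulge-like cells, a subset of the cells behind the choice, all 9 genes were lower in every wounded pool, by smaller folds. The median log2 fold was -2.21 and -1.61 in +/+ (3 and 5 days) and -2.07 and -1.86 in fl/fl, beside medians of -0.03, -0.01, -0.02 and 0.01 over all genes. At least 2-fold lower were 9 and 8 of the 9 in +/+ and 8 and 8 in fl/fl, where 5.93%, 4.44%, 7.22% and 5.17% of genes were. Of the 9, 7 and 3 were at least 4-fold lower in +/+ and 5 and 3 in fl/fl, where 1.11%, 0.643%, 1.28% and 1.12% of genes were. Without C17 the medians were -2.09, -1.43, -1.97 and -1.77, and the genes at least 4-fold lower were 6 and 3 in +/+ and 3 and 3 in fl/fl. Bulge markers, which had a part in naming the clusters, were lower too, and CD34 was also part of the gate of unwounded cells. In +/+ bulge-like cells Cd34 went from 604 CPM to 229 at 3 days and 207.5 at 5 days, Lgr5 from 829.5 to 305 and 410, and Krt15 from 14600 to 9806 and 9893, while Krt6a was 594, 583 and 496.

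**Figure D3:**
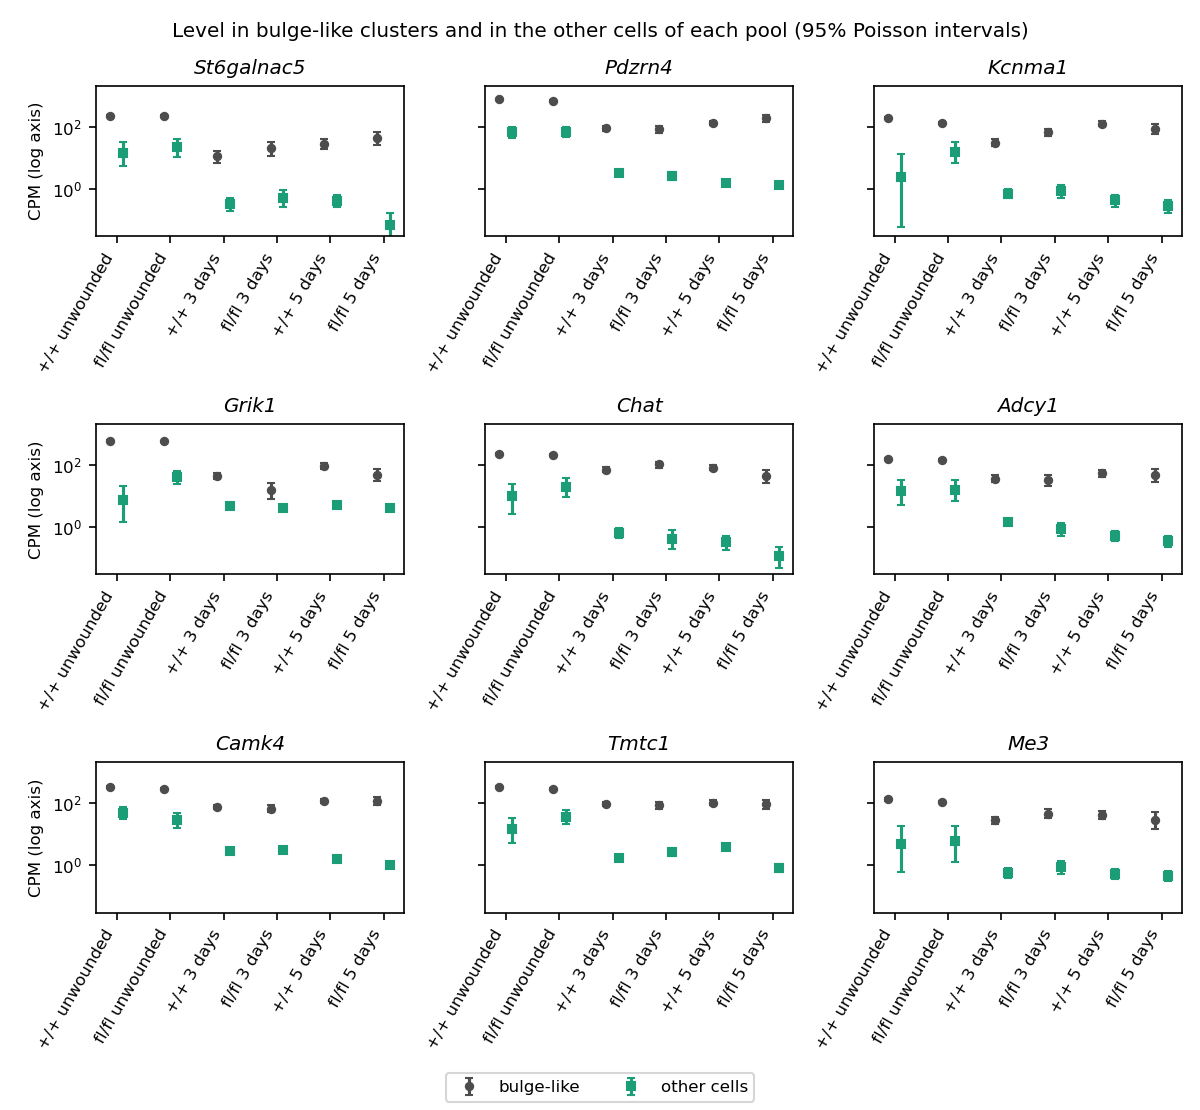
Level of each gene (CPM, log axis) in bulge-like cells (grey circles) and in all other cells (green squares) of the 6 pools, with 95% Poisson intervals. In every pool the bulge-like cells were above the other cells, and wounded bulge-like cells lay between 11.1 and 183.5 CPM.

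The folds of the 9 genes differed within bulge-like cells. St6galnac5 went from 221.5 to 11.1 CPM in +/+ at 3 days, 19.95-fold lower, and Grik1 from 567 to 14.96 in fl/fl at 3 days, 37.9-fold lower. Kcnma1 was the least lowered at 5 days, from 187 to 123 CPM in +/+ and from 131 to 85.5 in fl/fl, both about 1.5-fold (log2 -0.60 and -0.61). Chat stood at 69.6 and 80.8 CPM in +/+ and at 101 and 42.7 in fl/fl wounded bulge-like cells. From 3 to 5 days all 9 genes were higher within +/+ bulge-like cells (median log2 fold 0.60), where 50.5% of genes of at least 50 CPM were, 6 of the 9 reaching that minimum. Kcnma1 led at 1.999 (1.55 to 2.46), and the intervals of Chat (-0.18 to 0.61) and Tmtc1 (-0.18 to 0.53) held 0. In fl/fl bulge-like cells 7 were higher (median 0.48), where 52.7% of genes were, 5 of the 9 reaching the minimum. Chat was lower there, at -1.24 (-2.09 to -0.47), as was Me3, at -0.70 with an interval that held 0 (-1.82 to 0.31). Outside the bulge-like clusters of the wounded pools, Chat was at 0.113 to 0.649 CPM, St6galnac5 at 0.0709 to 0.513, and Grik1 at 3.96 to 5.09.

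Genotype was compared at each stage. In unwounded pools 7 of the 9 genes were lower in fl/fl, the median log2 fold was -0.11, and none reached 1.5-fold, against 4.43% of genes of at least 5 CPM that were that much lower and 2.06% that much higher. The choice used the levels of these pools, so the genotype differences are descriptions too. The largest of these differences was Kcnma1, at -0.45 (-0.62 to -0.28). Only St6galnac5 and Grik1 were above 0, at 0.03 and 0.01. At 3 days 4 genes were lower in fl/fl and the median was 0.16, with Kcnma1 (0.82) and Me3 (0.65) above and Grik1 (-0.445) below 0 by more than counting error. None was 1.5-fold lower there, where 1.16% of genes were. St6galnac5 (0.76, -0.005865 to 1.503), Kcnma1 and Me3 were at least 1.5-fold higher, where 0.214% of genes were. Only Pdzrn4, Grik1, Camk4 and Tmtc1 reached the 5 CPM behind those shares.

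At 5 days all 9 genes were at least 1.5-fold lower in fl/fl, against 2.56% of genes of at least 5 CPM (0.291% were that much higher), and the median was -1.41. Grik1 alone of the 9 reached that level, at -0.70, so the share describes genes of higher level than the other 8. Chat (-2.48), Tmtc1 (-2.12) and Kcnma1 (-1.95) were the lowest. Bulge-like cells were 6.65% of the +/+ and 2.37% of the fl/fl pool at this stage. Within bulge-like cells the median was -0.25, and St6galnac5 and Pdzrn4 were higher in fl/fl, at 0.62 (-0.33 to 1.52) and 0.485 (0.06 to 0.90). Cells called female by Xist were found only in the wounded +/+ pools, 399 at 3 days and 320 at 5 days. None was found in either unwounded pool or in the fl/fl pools. The +/+ wound contrasts therefore differ in sex calls too, and without the female cells their medians were -6.24 at 3 days and -6.68 at 5 days. Without them the genotype medians were 0.47 at 3 days and -1.09 at 5 days.

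Between 3 and 5 days the fall was larger in fl/fl than in +/+ whole pools. In fl/fl 8 of the 9 genes were at least 1.5-fold lower at 5 than at 3 days, against 4.94% of genes of at least 5 CPM, none of the 9 reaching that minimum, and the median was -1.97. In +/+ 2 were, Chat and Adcy1, against 3.06%, 3 of the 9 reached the minimum, and the median was -0.19. Kcnma1 was the 1 gene at least 1.5-fold higher in +/+ (0.70), where 1.62% of genes were, and none was in fl/fl, where 2.94% were. Grik1 was the exception in fl/fl, at -0.11. Bulge-like cells went from 9.94% to 2.37% of the fl/fl and from 10.4% to 6.65% of the +/+ pools over the same step. Within bulge-like cells the medians were above 0 in both genotypes, at 0.48 in fl/fl and 0.60 in +/+. Whether the genotypes differ in this step was not tested.

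The other members of each gene's family showed how far relatives shared the pattern. Counts cover family genes averaging 5 CPM or more in the contrast. A gene can reach that mean through 1 side alone, and its direction is then largely set by the minimum. Of all genes at that minimum, 60.5% and 62.7% were lower in +/+ (3 and 5 days) and 60.7% and 61.0% in fl/fl. At 3 days 28.1% (+/+) and 27.9% (fl/fl) were at least 2-fold lower, and 11.8% and 12.3% at least 2-fold higher. Of 25 other glutamate receptor genes, 2 reached 5 CPM at 3 days in fl/fl, Grik5 (11.4 to 0.629 CPM) and Grik4 (12.4 to 1.57), both lower, and none did in +/+. Both reached it through their unwounded levels alone. Neto1, a helper subunit of kainate receptors, had no UMI in any pool, and Neto2 had 2 and 4 UMIs in the unwounded pools and stood at 2.796 to 4.135 CPM in the wounded ones.

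Of 23 other acetylcholine genes, the choline transporter-like gene Slc44a1 was slightly lower (log2 fold -0.34 to -0.18). Chrna9, a nicotinic receptor subunit, was lower, from 10.5 to 0.331 and 0.220 CPM in +/+ and from 9.48 to 0.315 and 0.183 in fl/fl. It reached the minimum in +/+ alone, through its unwounded level. Slc18a3, the vesicular acetylcholine transporter, which lies inside the Chat locus, had 2 UMIs in each unwounded pool, and Slc5a7, the choline transporter of neurons, had none in any pool. Neither partner of Chat in neurons was thus detected above 3 UMIs in a pool.

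Of 10 relatives of Kcnma1, Kcnmb4 and Kcnn4 reached a mean of 5 CPM at 3 days. Both did so through their wounded levels alone, so their direction, higher in wounded pools, is a description only. The BK subunit Kcnmb4 stood at 3.085 and 3.87 CPM unwounded and at 8.20 to 9.615 wounded, with log2 folds at 3 days of 1.41 (+/+) and 1.095 (fl/fl). Kcnn4, another calcium-activated potassium channel, had 3 and 9 UMIs unwounded, reached 9.77 (+/+) and 12.6 CPM (fl/fl) at 3 days and had 4.51 and 4.145 CPM left at 5 days. Its log2 fold at 3 days was 3.40 (1.845 to 5.68) in +/+ and 2.86 (1.91 to 4.002) in fl/fl. Kcnn1 and Kcnn3, below 5 CPM, were lower in all 4 contrasts.

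Of the 9 other adenylyl cyclases 3 reached 5 CPM. Adcy6 (log2 fold -4.04 to -2.985) and Adcy9 (-2.05 to -1.755) were lower in all 4 contrasts, and Adcy3 had intervals that held 0 in each. Among the 11 other calmodulin-dependent kinases 7 reached 5 CPM at 3 days in each genotype, of which 4 were at least 2-fold lower and none 2-fold higher. Camk1 was lower by -4.46 to -3.39 and Camk1d, the most abundant, went from 1006 CPM to 259 and 269 in +/+ and from 900 to 254 and 242 in fl/fl. Camk2d was within 0.30 of 0. The 6 CREB factors and coactivators were all lower in each contrast, with medians of -0.85 to -0.67, Creb1 at -0.87 to -0.76. In +/+ the interval of Crtc2 held 0 at both times.

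Pdzrn3, the closest relative of Pdzrn4, went from 627 CPM to 92.9 and 51.8 in +/+ and from 562 to 84.2 and 25.6 in fl/fl, whereas Lnx2 was higher (0.42 to 1.05). St3gal2, a sialyltransferase of gangliosides, was lower (-2.59 to -1.70), and B4galnt1, which acts earlier in the making of complex gangliosides, was higher (1.09 to 1.89). The folds of the 3 other Tmtc genes lay from -2.26 (Tmtc4 at 3 days in +/+) to -0.05 (Tmtc3 at 5 days in fl/fl). Of the 7 other malic enzyme and NADPH source genes 6 reached 5 CPM, and 1 of them, Idh2, was lower in every contrast against unwounded (-0.61 to -0.26). The cytosolic malic enzyme Me1 was higher (1.27 to 1.55), as was Pgd of the pentose phosphate pathway (1.17 to 1.72).

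**Figure D4:**
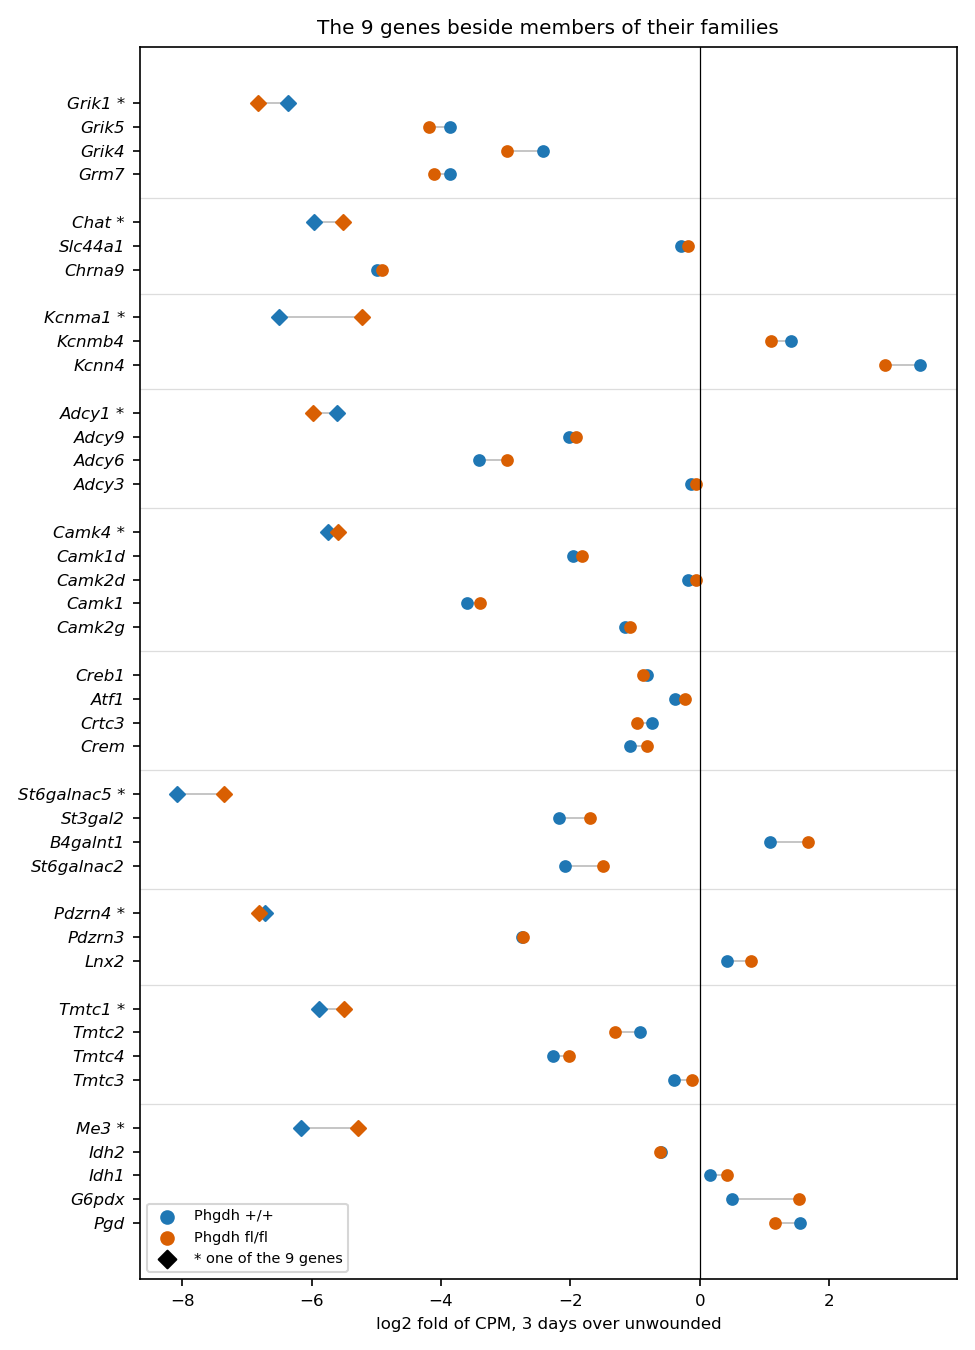
Log2 fold of CPM at 3 days over unwounded for each of the 9 genes (diamonds, starred) and named members of its family (circles), in Phgdh +/+ (blue) and fl/fl (orange) pools; the line at 0 marks no difference. Each of the 9 lies below -5 and below the relatives drawn beside it, of which Kcnn4, Kcnmb4, B4galnt1, Lnx2, Pgd, G6pdx and Idh1 lie above 0.

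Most of the 9 genes have a large genomic span. The choice did not use span, but it used the fall, which went with span. Of the genes at least 16-fold lower, 27 of 61 and 33 of 72 in +/+ (3 and 5 days) spanned at least 100 kb. In fl/fl 27 of 68 and 52 of 116 did, and all these counts include members of the 9. Of the 9, 8 span at least 100 kb (median of the 9, 222 kb, with Kcnma1 the longest at 713 kb and Chat the shortest at 57.7 kb), as do 20.9% of the genes of at least 50 CPM with a known span (median 28.5 kb). Long genes as a class were lower in wounded pools: the median log2 fold of genes of at least 100 kb was -1.06 and -1.02 in +/+ and -1.02 and -0.97 in fl/fl, against 0.46, 0.44, 0.40 and 0.36 for genes under 10 kb. Such long genes held 15.4% and 14.1% of UMIs unwounded and 6.24% to 6.70% wounded, and the nuclear RNA Malat1 stood at 17558 and 16671 CPM against 4698 to 5765. Set against the long genes, the medians of the 9 were -5.11, -5.335, -4.57 and -6.61. Within bulge-like cells long genes had medians of -0.35 and -0.16 in +/+ and -0.37 and -0.03 in fl/fl. Whether intronic reads were counted is not given in the sources used here, and the part of nuclear RNA in the folds was not tested.

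**Figure D5:**
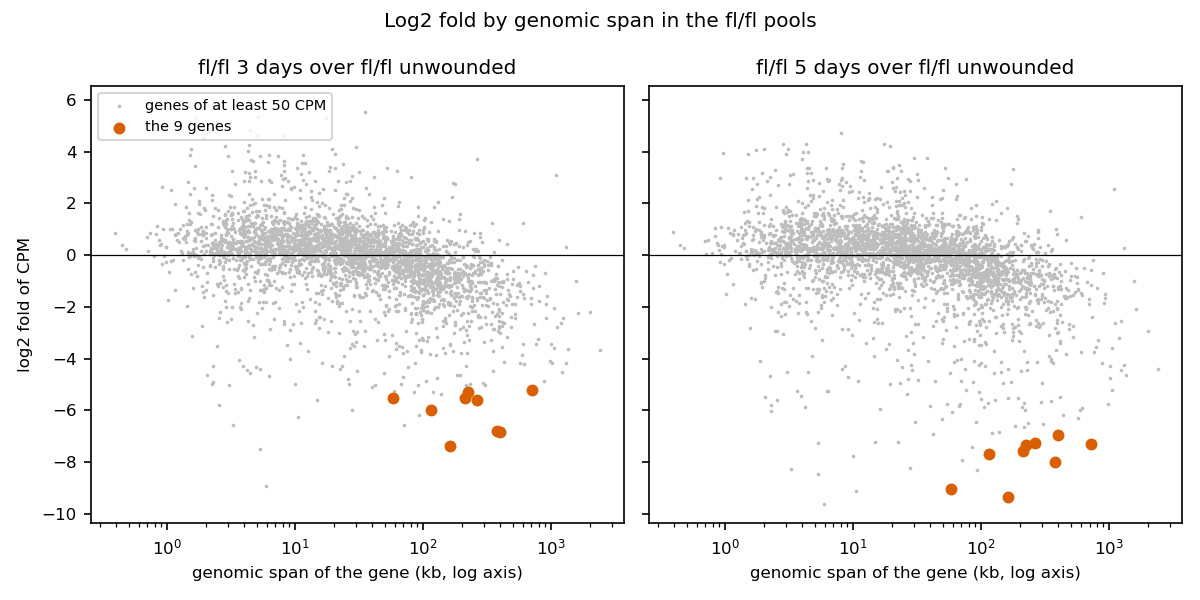
Log2 fold of CPM in the fl/fl pools, 3 days (left) and 5 days (right) over unwounded, against genomic span (kb, log axis) for genes of at least 50 CPM (grey) and the 9 genes (orange). Genes spanning at least 100 kb have medians of -1.02 and -0.97, and the 9 genes lie between -7.36 and -5.23 on the left and between -9.32 and -6.94 on the right.

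A small cluster, C19, with 52 of its 96 cells from the unwounded +/+ and 40 from the unwounded fl/fl pool, carried the genes at the highest levels. Its cells had a median of 4726 UMIs, 8.39% mitochondrial UMIs against 4.84% in the other bulge-like cells of the unwounded pools, 38.9% of UMIs in long genes against 13.9%, and Malat1 at 37040 CPM against 17090. Grik1 stood there at 2545 CPM against 449, Pdzrn4 at 1664 against 636 and Camk4 at 898 against 259, while Krt15 stood at 1067 against 16010. C19 held between 9.29% (Adcy1) and 26.3% (Grik1) of the unwounded UMIs of each gene. Without C19 the medians of the 9 against unwounded were -5.92, -6.20, -5.46 and -7.63, so the folds are about as large without it.

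Clusters were compared over their unwounded cells alone, both genotypes summed, which are 582 of the 600 cells of C2, 286 of 291 in C12 and 66 of 124 in C17. Kcnma1 stood at 86.8 CPM (75.2 to 99.75) in C12 against 166 (154 to 178.5) in C2, and Chat at 116.5 against 228. Adcy1 was closer, at 120.0 (106 to 135) against 149 (138 to 161). In C17 St6galnac5 stood at 38.3 CPM (22.7 to 60.5) against 223 in C2 and Me3 at 40.4 (24.3 to 63.1) against 114, while Grik1 was higher, at 689 against 456, and Camk4 too, at 329.5 (280 to 386) against 256.5 (241.5 to 272). Chat, at 261.5 (217 to 312), overlapped its level in C2.

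The genes with the most similar pattern were found over 43 units of pool and cluster with at least 50 cells, from 6644 genes, by Pearson's r of log2(CPM + 1). Ltbp2, a matrix protein that binds fibrillin, was among the 3 nearest of St6galnac5, Pdzrn4 and Adcy1, with r of 0.98, 0.97 and 0.98. Il31ra, a cytokine receptor, was among those of Pdzrn4, Kcnma1, Chat, Adcy1 and Me3, with r of 0.96 to 0.98, and Fam171b among those of Pdzrn4, Camk4, Tmtc1 and Me3. Smad9, a BMP signal transducer, was the nearest of St6galnac5 (0.98) and the second nearest of Grik1 (0.96). The nearest pair within the 9 was Kcnma1 and Chat (0.98) and the farthest Grik1 and Tmtc1 (0.91). These values are descriptions without a test, since the units share 1 capture, the clusters and the contrast of resting with wounded cells.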

How the data were processed

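Single-cell 3′ RNA and hashtag libraries were read with 28 and 90 bp. In the matrix the authors deposited, each value is an unnormalized UMI count of a gene or hashtag in 1 of 2997303 barcodes. The authors used Cell Ranger 7.1.0 with the mm10 build and Seurat 4.3.0, per the submitters' processing notes. Hashtag conditions were taken from the deposited feature reference.

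Cells had to show 1000 UMIs and 500 genes or more, and no more than 10% mitochondrial UMIs, which left 6900 barcodes with 83.2% of gene UMIs. HTODemux (Seurat 5.3.0, quantile 0.99, R 4.3.3) gave 5659 singlets, 503 doublets and 738 negatives, and singlets were used. Doublets within a hashtag remain (126 expected). Cells were clustered without the 9 genes (scanpy 1.11.5, leidenalg 0.10.2, Python 3.11.15, 2000 variable genes, 30 components, 15 neighbours, resolution 1). A cluster was named where at least 3 markers of 1 list were raised, that is, at least 10 CPM and 2-fold above other cells. In addition, 2 of the list had to be among its top 10 genes, or 2 of every 3 markers of the list raised. The list with the largest raised share gave the name, dropped where another list had more top genes. Names of clusters are rebuilt here. UMIs were summed per pool and scaled to CPM. Levels carry Poisson, ratios conditional binomial and shares Clopper-Pearson intervals (scipy 1.17.1, 95%). Apart from these intervals, a fixed floor of 3 UMIs was set. It is 0.926 (+/+) and 0.581 CPM (fl/fl) in the unwounded and 0.0423 to 0.135 CPM in the wounded pools. Counts of +/+ cells at 3 days and unwounded were simulated as Poisson draws, the model that the intervals assume. In them 50 genes each were set to log2 folds of -6, -4, -2 and -1. The true value lay inside the interval for 98%, 94%, 96% and 96% of them and for 94.9% of 2983 unchanged genes, of 3183 in all. This checks the calculation alone, since the draws hold no clumping of UMIs in single cells and no variation between animals.

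The members, family lists, marker lists and rules were chosen with earlier results of these data known. Named genes are the 9, at most 4 of each family with the highest CPM in unwounded +/+ cells, the 3 most similar genes of each of the 9, the 2 genes just outside the 10 lowest, fixed reference genes (Phgdh, Cd34, Lgr5, Krt6a, Mki67) and neuron genes with at least 3 UMIs. Neto1, Neto2, Slc18a3, Slc5a7, Me1, Krt15, Malat1, Myoc, Ccn2 and Cck were named after their values were seen. Tubb3, Map2, Stx1a and Syp follow the family rule, and Kcnn1 and Kcnn3 too. Alternatives covered scaling (TMM of edgeR 4.0.16), cell filters, hashtag calls, weighting and clusters.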

Additional observations from a re-analysis of the deposited data

Results flagged for a closer look

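For Kcnma1 the difference between genotypes had opposite signs at 3 and 5 days: fl/fl over +/+ was 0.82 on the log2 scale at 3 days (0.36 to 1.28) and -1.95 at 5 days (-2.42 to -1.49). The same values read by time give Kcnma1 at 5 over 3 days as 0.70 in +/+ and -2.07 in fl/fl. For Me3, fl/fl over +/+ was 0.65 at 3 days (0.13 to 1.16) and -1.20 at 5 days (-1.78 to -0.63). Each rests on 1 pool per condition and on 42 to 160 UMIs per pool, the intervals cover counting error only, and the difference between the stages was not tested. With another rule for hashtag calls Me3 at 3 days was -0.14. At 3 days a Kcnma1 UMI was found in 4.61% of +/+ and 4.78% of fl/fl cells, and 5 fl/fl cells held 53.5% of the 71 UMIs there. Within bulge-like cells Kcnma1 in fl/fl over +/+ was 1.10 at 3 days (0.54 to 1.66) and -0.53 at 5 days (-1.11 to 0.03). Its 5 over 3 days in fl/fl was 0.37 there (-0.29 to 1.02). Me3 there was 0.72 at 3 days (0.07 to 1.35) and -0.58 at 5 days (-1.68 to 0.39).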

How the results depend on the processing

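No paired analysis was possible because each condition is 1 pool and the samples carry no shared replicate numbers, and for the same reason no replicate could be left out. In the order +/+ at 3 and 5 days and fl/fl at 3 and 5 days over unwounded, the median log2 folds of the 9 genes were -6.16, -6.35, -5.59 and -7.58. They became -5.60, -5.75, -5.05 and -7.02 with TMM factors, -6.54, -6.71, -6.001 and -8.33 with at most 5% mitochondrial UMIs, -5.20, -5.16, -4.70 and -6.26 with equal weight per cell, -6.45, -6.69, -6.35 and -8.12 without the 5 highest cells of each gene, and -5.11, -5.335, -4.57 and -6.61 relative to genes spanning at least 100 kb. Single shifts were -5.61 (+/+ 3 days) and -7.11 (fl/fl 5 days) with hashtag calls of at least 20 UMIs and 70% in 1 hashtag, -6.68 and -6.63 (+/+ 5 days) without female cells and without the highest Scrublet scores, and -5.92 (+/+ 3 days) without cluster C19. As mean UMIs per cell, which keeps the greater UMI counts of wounded cells, they were -3.75, -4.015, -3.14 and -4.92, with 3, 5 and 3 genes at least 16-fold lower in the first 3. In bulge-like cells of both pools they were -2.21, -1.61, -2.07 and -1.86, with 1, 0, 1 and 0 genes at least 16-fold lower. Per cell, C19, C17 and bulge-like settings were added after the data were seen. Every fold of the 9 in these 4 contrasts was below 0 under each of the 16 alternatives run.

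The genotype median at 3 days (0.16) was -0.24 with the other hashtag rule and -0.26 without the 5 highest cells. At 5 days (-1.41) it was -0.25 in bulge-like cells and -0.70 for the 1 gene of at least 5 CPM. Signs turned for Pdzrn4 unwounded (0.0805 at 5% mitochondrial, 0.0034 without C19, 0.0208 relative to long genes), Camk4 unwounded (0.0813 at 5%), Me3 at 3 days (-0.14 with the hashtag rule), and St6galnac5 (0.62) and Pdzrn4 (0.485) at 5 days in bulge-like cells. The median share of cells with a UMI was 43.7%, 42.2%, 2.78%, 2.57%, 1.66% and 0.634% (unwounded +/+ and fl/fl, 3 days, 5 days) at 4000 UMIs. It was 28.4% and 28.0% unwounded and 1.41% for +/+ at 3 days at 2000 UMIs, and 56.2%, 55.7%, 7.03%, 6.12%, 3.99% and 2.37% without thinning. The causes were not tested. Wounded levels of the 9 rest on 22 to 372 UMIs per gene and pool, and wounded bulge-like levels on 34 to 133 cells.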

Other observations

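Barcodes left out of the pools also carried the genes. In 2929 barcodes over 10% mitochondrial, with 22.7% of UMIs in genes spanning at least 100 kb, Pdzrn4 stood at 89.6 CPM, Grik1 at 91.7, Chat at 33.3 and St6galnac5 at 29.2, with Cd34 at 29.6. The 738 barcodes with no hashtag call had a median of 29480 UMIs and Krt6a at 7077 CPM, and held Pdzrn4 at 9.55 CPM and Chat at 2.10. These barcodes have no condition and enter no comparison. In the 13 cells of the immune-like cluster C21 Camk4 stood at 103 CPM from 19 UMIs.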
